A study of Caenorhabditis elegans with 12 samples.

Results

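The loss of daf-19 was examined in embryos that also lacked normal daf-12 function. Arrays of the double mutant daf-19(m86), daf-12(sa204), strain JT6924, were compared with arrays of the single mutant daf-12(sa204), strain JT204, so that both groups carried the daf-12 allele and differed in daf-19. The arrays were chosen by their labels: 8 of the 12 columns of the series belonged to these strains. Columns 1 and 2 of the double mutant held the same value at all 22625 probe sets and were counted as 1 array, here array 1-2. The comparison therefore rested on 7 different arrays of 11, with 3 of the double mutant and 4 of the daf-12 mutant. The remaining 4 arrays, of the N2 Bristol wild type, strain JT5010, entered the fit for the estimate of spread. In fits with a block they also entered the estimate of the shift between blocks, and so the size of the change. They are quoted where they bear on a result.

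Every sample was RNA from whole embryos at the 3-fold stage, late in elongation, when the worm is folded inside the egg shell and its sensory neurons build their cilia. Affymetrix arrays gave 1 value per probe set, a group of short probes to 1 transcript or several, on a log2 scale, so that a difference of 1 is a doubling. Of these, 22548 were tested after 77 control probe sets were set aside, and probe sets with 1 gene name covered 17118 genes. Where a gene had several, the one with the highest mean level represented it. Array medians lay between 6.2 and 6.37. With 3 and 4 arrays the precision is limited. Separate cultures are not stated for the arrays of a group, so p-values measure only the spread between these samples.

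DAF-19 is the worm member of the RFX family of transcription factors, which bind the X-box motif in front of genes for cilia. In the worm, cilia are found at the dendrite endings of sensory neurons, where they hold the receptors for odours, tastes, temperature and pheromone. Intraflagellar transport (IFT) carries material along the cilium with kinesin and dynein motors and the IFT-A, IFT-B and BBSome complexes, and the transition zone at its base gates what enters. DAF-12 is a nuclear hormone receptor that decides between dauer arrest and growth, and worms without cilia tend to form dauers. A daf-12 mutation prevents this, which is the use of a daf-12 background for daf-19 mutants.

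Poly-A controls, RNA added during sample preparation and read by 24 probe sets, averaged 4.16 to 4.32 on arrays numbered 1 and 2 and 7.16 to 10.21 on arrays numbered 3 and 4, in all groups. The labels name no batch, and the arrays are treated here as 2 sets, replicates 1 and 2 and replicates 3 and 4, in which the comparison was also made apart. Double mutant arrays 3 and 4 were the closest pair of all, with an SD of the difference over probe sets of 0.23 and 9 of 22548 probe sets apart by more than 1. For daf-12 arrays 3 and 4 this SD was 0.29, and for daf-12 arrays 1 and 2 it was 0.37. Signal of the ribosomal RNA gene rrn-3.1, as the mean of 5 probe sets, was 9.62 and 10.33 on daf-12 arrays 3 and 4 but 6.14 and 5.94 on the double mutant arrays of that set, and 4.32 to 4.40 on arrays of either genotype in the first set. The adult yolk gene vit-2 lay between 3.25 and 3.92 on all 11 arrays, close to the lowest values measured.

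Both probe sets of daf-19, the mutated gene, gave lower values in the double mutant. At the first it stood at 7.20, 7.15 and 7.15 on double mutant arrays 1-2, 3 and 4, against 9.10, 8.85, 8.88 and 8.91 on the daf-12 arrays, a change of -1.77 ± 0.23 (SE; limma, adjusted p = 0.0248). At the second it stood at 8.88, 8.29 and 8.38 against 9.80, 9.94, 9.96 and 10.17, a change of -1.45 ± 0.20 (adjusted p = 0.0281). The groups did not overlap at either probe set. With the replicate number as a block, which asks for the change between arrays of the same number, the adjusted p values were 0.0505 and 0.0553. Of the genes within 10 places of daf-19 on either side, 15 were measured and none was called, with changes from -0.42 to 0.61. The transcript of daf-12, which carries the same allele in both groups, stood at 9.13, 8.24 and 8.33 in the double mutant and at 8.83, 8.85, 8.48 and 8.84 in the daf-12 mutant (change -0.18 ± 0.29, adjusted p = 1), and its other probe sets gave -0.14 and -0.39 (adjusted p = 1).

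Over all arrays limma called 13 probe sets lower in the double mutant, 0.0577% of those tested, and 0 higher, at a Benjamini-Hochberg adjusted p under 0.05. At an unadjusted p under 0.05 there were 538 lower (2.39%) and 571 higher (2.53%). The 13 belonged to 11 genes, 7 of which are in the ciliary lists described below, and to 1 probe set shared by R01H2.8 and tmem-17. At each of the 13 the highest double mutant array was below the lowest daf-12 array. Such a separation was found at 670 probe sets in all (2.97%), and the opposite one at 517 (2.29%).

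**Figure D1:**
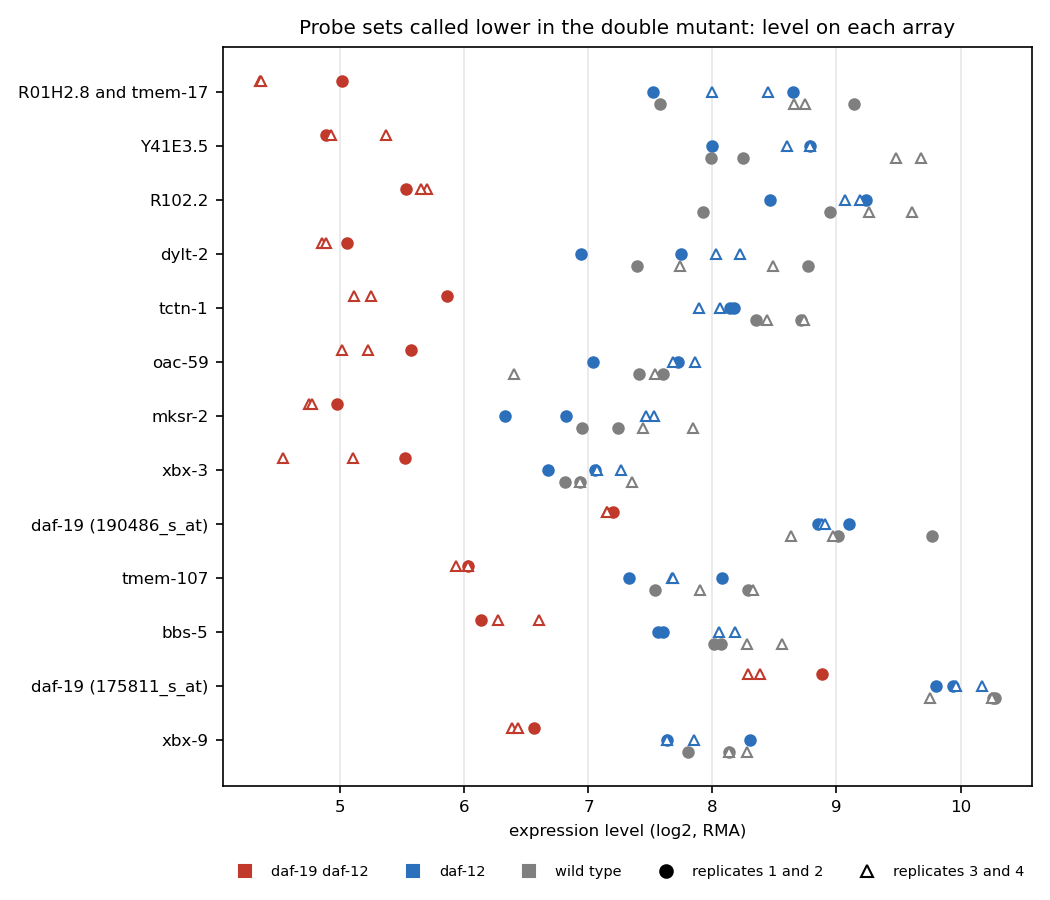
Level (log2, horizontal axis) of the 13 probe sets called lower in the double mutant, 1 row each, with a point per array: red for the double mutant, blue for the daf-12 mutant and grey for wild type, filled circles for replicates 1 and 2 and open triangles for replicates 3 and 4. No red point reaches the blue or grey points of its row; tctn-1 lies at 5.86, 5.11 and 5.25 in the double mutant and at 7.89 or higher in the daf-12 mutant.

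The lowest adjusted p belonged to tctn-1, which encodes tectonic, a protein of the transition zone. It measured 5.86, 5.11 and 5.25 on the double mutant arrays and 8.14, 8.17, 8.06 and 7.89 on the daf-12 arrays. The daf-12 arrays lay close together and the double mutant arrays far below them, with array 1-2 the highest of the 3. The change was -2.66 ± 0.20 (SE, n = 3 and 4; limma, adjusted p = 0.00067), a 6.32-fold lower level. The first set of arrays alone gave -2.30 and the second -2.80.

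The largest falls were those of 2 genes for which no role is given here and of the R01H2.8 and tmem-17 probe set. R102.2 measured 5.53, 5.70 and 5.65 against 9.24, 8.46, 9.07 and 9.19 (change -3.36 ± 0.34; limma, adjusted p = 0.00593), and Y41E3.5 measured 4.88, 5.37 and 4.92 against 8.79, 8.0, 8.60 and 8.79 (-3.49 ± 0.40, adjusted p = 0.0107). The shared probe set measured 5.01, 4.35 and 4.36 against 7.52, 8.65, 8.45 and 8.0 (-3.58 ± 0.37, adjusted p = 0.00593). At none of these did the groups come near each other. The change hardly differed between the sets of arrays for R102.2 (-3.32 and -3.45) and Y41E3.5 (-3.52 and -3.55). For the shared probe set it was -3.07 in the first set and -3.87 in the second. tmem-17 encodes a membrane protein of the transition zone, and the array cannot separate it from R01H2.8.

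The other called genes of the transition zone were mksr-2 and tmem-107. mksr-2, which encodes a B9 domain protein, measured 4.97, 4.75 and 4.77 against 6.33, 6.82, 7.53 and 7.46 (-2.20 ± 0.30; limma, adjusted p = 0.0248). tmem-107, which encodes a membrane protein, measured 6.03, 6.03 and 5.93 against 7.33, 8.08, 7.67 and 7.68 (-1.69 ± 0.23, adjusted p = 0.0248). Its change was the same size in both sets, -1.68 and -1.69, while that of mksr-2 was -1.61 in the first and -2.74 in the second. With the replicate block tmem-107 lost its call (adjusted p = 0.0864) and mksr-2 kept it (adjusted p = 0.0271).

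Other called genes belonged to the transport machinery or to the xbx group, which is named for the X-box in front of its members. dylt-2, a dynein light chain, measured 5.05, 4.85 and 4.88 against 6.94, 7.75, 8.22 and 8.03 (-2.81 ± 0.36; limma, adjusted p = 0.0235). bbs-5, a subunit of the BBSome, measured 6.13, 6.60 and 6.27 against 7.60, 7.56, 8.05 and 8.18 (-1.51 ± 0.22, adjusted p = 0.0326). The groups were apart for both, and the change of bbs-5 was -1.45 in the first set and -1.68 in the second. xbx-3 measured 5.52, 4.54 and 5.10 against 7.05, 6.67, 7.07 and 7.26 (-1.96 ± 0.24, adjusted p = 0.0201). xbx-9 measured 6.56, 6.38 and 6.43 against 8.30, 7.63, 7.63 and 7.85 (-1.40 ± 0.20, adjusted p = 0.0301). The replicate block ended the calls of dylt-2 (adjusted p = 0.0505) and xbx-9 (adjusted p = 0.0936) and left those of bbs-5 and xbx-3. The last of the 11 genes, oac-59, which is named as an O-acyltransferase, was called at 1 of its 2 probe sets, at 5.57, 5.22 and 5.01 against 7.04, 7.72, 7.86 and 7.68 (-2.31 ± 0.31, adjusted p = 0.0248, or 0.0864 with the replicate block). Its other probe set gave -2.27 ± 0.36 (adjusted p = 0.0616).

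On the chromosomes, 5 of the 11 called genes lay on IV, 2 on III and 1 each on I, II, V and X. Of the named genes, 2666 lay on IV, and the other chromosomes held from 2251 on III to 4317 on V. The calls of the set block, described below, held 10 genes on IV and 5 to 8 on each other chromosome. An excess on IV was not tested. The calls were sensitive to single arrays. When 1 array at a time was left out, limma called 1 probe set lower without double mutant array 3 or 4, 26 without array 1-2, 23 without daf-12 array 1, and 6, 3 and 3 without daf-12 arrays 2, 3 and 4. Without wild type array 4 it called 6. tctn-1 was called in 11 of the 11 such fits, and R102.2 and the R01H2.8 and tmem-17 probe set in 9. Averaging the close arrays 3 and 4 of each mutant to 1 sample left tctn-1 as the 1 call.

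Fitting the set of arrays as a block takes out a shift that is shared by all genotypes of a set. With it limma called 41 probe sets lower, 0.182%, and 7 higher, 0.031%. All 13 were among the 41. With the replicate number as the block 12 were lower (0.0532%) and 2 higher (0.00887%), and 7 of the 13 were among those 12. Of the 41 lower with the set block 11 were also called with the replicate block, and of the 7 higher 2 were.

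The cilium is described next by the roles of its genes. Of 75 genes in 10 ciliary lists, 69 were measured by a probe set of their own; ift-20, bbs-4, mks-2, tmem-17, tmem-218 and nphp-2 were not. Among the 69, 59 had a change below 0, beside 53.8% of all 17118 genes. In 45 of them the genotypes were fully separated with the double mutant lower, beside 3.23% of all genes, and in 1, dyf-7, with the double mutant higher, beside 2.05%. A change of -1 or lower was found in 37, beside 0.952%. The median change was -1.06, against -0.02 over all genes. limma called 7 of the 69 lower without a block, beside 0.0584% of all genes, 14 with the set block, beside 0.204%, and 4 with the replicate block, beside 0.0584%. None was called higher in any of these fits. The lists were put together from knowledge of the cilium and of which genes had moved in these data, so their counts are descriptions. In RNA from whole embryos, fewer cells of a type and less RNA per cell cannot be told apart.

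The mean level of the 69 genes was almost the same on the double mutant arrays, at 5.90, 5.91 and 5.92. On the daf-12 arrays it was 6.37, 6.59, 7.23 and 7.40, and on the wild type arrays 6.84, 7.03, 6.83 and 7.20. The daf-12 arrays of the second set were thus above those of the first, while the mean of the double mutant arrays did not differ in this way. Single lists did differ between double mutant arrays 1-2, 3 and 4, in both directions. The small GTPase and tubby list averaged 6.68, 7.36 and 7.27, and the list of the transition zone MKS module 5.58, 5.26 and 5.28. The median SD of a ciliary gene over the arrays of a group was 0.23 in the double mutant, equal to that of all probe sets. In the daf-12 mutant it was 0.45, where it was 0.30 over all probe sets. The median level of a ciliary gene was 5.61 in the double mutant, but some were lower, such as bbs-2 at 3.42, 3.71 and 3.47. Over all probe sets the median residual SD was 0.23 at mean levels under 5 and 0.36 at 5 to 7. The part of low signal in the steady mean and small SD of the double mutant was not tested.

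**Figure D2:**
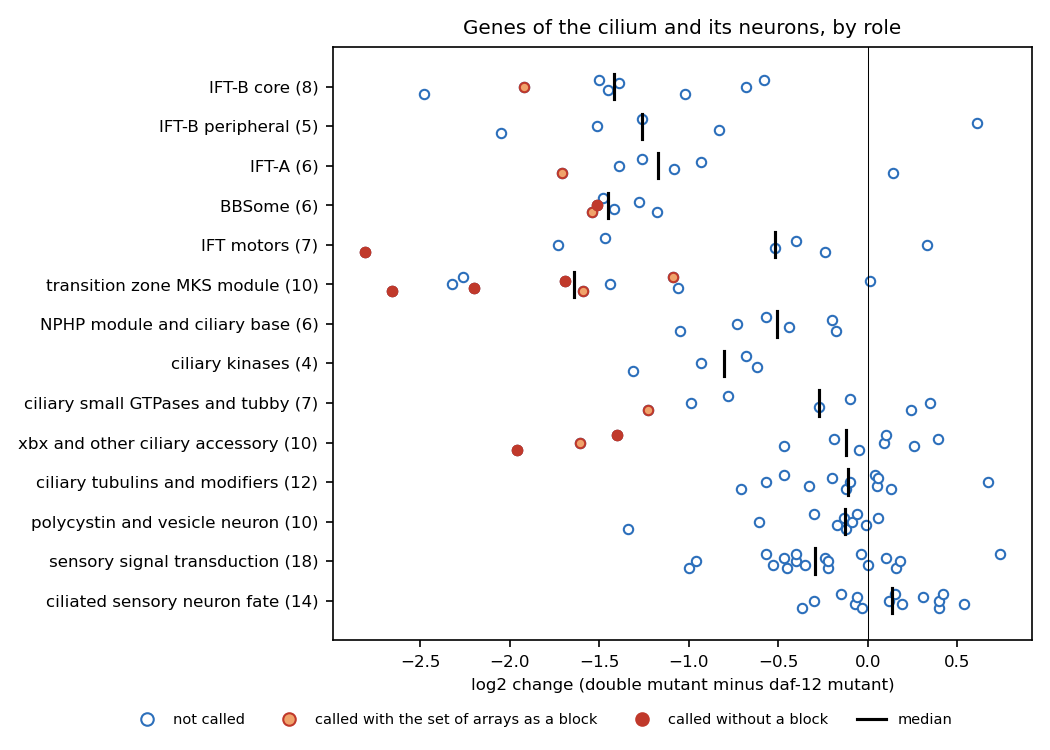
Change of each gene (log2, double mutant minus daf-12 mutant, horizontal axis) by role, with the number of measured genes in brackets, the median as a black line, filled red points for genes called without a block and orange points for those added by the block for sets of arrays. The 10 ciliary lists from IFT-B core to xbx and accessory genes hold all the calls, with medians from -1.64 in the MKS module to -0.12, and the 4 lists below them hold none.

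IFT-B trains carry cargo towards the tip of the cilium. All 8 measured core genes had a change below 0 (median -1.42, from -2.48 to -0.58), and in 7 the arrays of the groups did not overlap. osm-5, the worm IFT88, measured 5.21, 5.04 and 5.08 against 6.32, 6.74, 7.50 and 7.57. It was not called without a block (-1.92 ± 0.30; limma, adjusted p = 0.0616) but was called with the set block (-2.0, adjusted p = 0.00877), and not with the replicate block (adjusted p = 0.0505). Its other probe set gave -1.16 (adjusted p = 0.427). The largest value in the list was that of ifta-2, a small GTPase related to RABL5, at 4.55, 4.59 and 4.92 against 5.27, 5.90, 8.54 and 8.96. Its daf-12 arrays were far apart, and its change of -2.48 had an adjusted p of 0.732. ift-74 (-1.50) and dyf-1 (-1.45), 2 further subunits, also had their larger difference in the second set.

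Of the 5 measured peripheral IFT-B genes 4 had a change below 0 (median -1.26), and 0 were called. che-13, the worm IFT57, measured 4.27, 4.85 and 4.41 against 4.94, 5.74, 7.55 and 8.0, and che-2, the worm IFT80, measured 5.07, 5.06 and 5.04 against 5.69, 5.82, 6.79 and 6.97. In both the groups were apart, and for che-13 daf-12 array 1 came near the double mutant. osm-1, the worm IFT172, stood at a difference of -1.51 (limma, adjusted p = 0.732). The exception was dyf-11, the worm IFT54, at 4.98, 6.29 and 6.75 against 4.25, 4.36, 6.45 and 6.54, where the sets of arrays differed more than the genotypes. This gene was picked out after its values were seen.

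The IFT-A complex serves the return journey. Of 6 measured genes 5 had a change below 0 (median -1.17), and 0 were called without a block. ift-139 measured 4.43, 4.58 and 4.12 against 5.29, 5.72, 6.43 and 6.90 (-1.71) and was called with the set block (limma, -1.77, adjusted p = 0.0477) and not with the replicate block (adjusted p = 0.202), while a second, dimmer probe set of the gene gave 0.06. ifta-1 (-1.39) and daf-10 (-1.08), both subunits of the complex, also separated the groups on all arrays. che-11, the worm IFT140, did not: it measured 4.87, 4.92 and 4.51 against 4.80, 4.91, 7.13 and 7.25, with no difference in the first set (0.02) and one of -2.48 in the second.

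The BBSome, an adaptor for membrane proteins on IFT trains, had a change below 0 in all 6 measured subunits, with a narrow range from -1.54 to -1.18 and no overlap of the groups in any. bbs-5 was called without a block. bbs-8 measured 6.15, 5.73 and 5.76 against 7.0, 7.30, 7.65 and 7.74 (-1.54; limma, adjusted p = 0.0616) and was called with the set block (adjusted p = 0.013) and not with the replicate block (adjusted p = 0.0759). bbs-9 and bbs-2, with -1.48 and -1.42, were not called. In them the first set differed by -0.31 and -0.63 and the second by -2.56 and -2.27.

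Among 7 motor genes dylt-2 was the 1 call. xbx-1, a dynein light intermediate chain, had a value of -1.73 (limma, adjusted p = 0.294) and che-3, the dynein heavy chain, one of -1.47 (adjusted p = 0.537), both with no overlap of arrays. The kinesin gene osm-3 measured 5.68, 5.81 and 6.09 against 6.25, 5.74, 6.50 and 7.01 (-0.52, adjusted p = 1). klp-11, kap-1 and klp-20, the subunits of kinesin-II, had changes of -0.40, -0.24 and 0.33, and their arrays overlapped; these 3 were picked out after their values were seen.

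The MKS module of the transition zone had the lowest median, -1.64, with 9 of 10 measured genes below 0, 3 called without a block, 5 with the set block and 2 with the replicate block. Those added by the set block were jbts-14 (limma, -1.65, adjusted p = 0.0279) and mks-1 (-1.13, adjusted p = 0.00877), neither of which was called with the replicate block (adjusted p = 0.147 and 0.0514). mks-6 measured 5.35, 4.65 and 4.70 against 6.61, 6.84, 7.43 and 7.99 (-2.32 ± 0.39, adjusted p = 0.068) and was not called with the set block either (adjusted p = 0.0518). tmem-231 measured 6.56, 5.74 and 5.83 against 6.64, 8.25, 9.06 and 9.27 (-2.26, adjusted p = 0.478), where daf-12 array 1 was close to double mutant array 1-2. mks-5, a scaffold of the transition zone that was counted in this list, measured 6.46, 6.81 and 6.62 against 6.42, 6.46, 6.59 and 7.0 (0.01 ± 0.18, adjusted p = 1). The arrays of the groups overlapped there. jbts-14, mks-1 and mks-5 were picked out after their values were seen.

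Genes of the NPHP module and the ciliary base were less far apart, with a median of -0.51, 6 of 6 below 0 and 0 called. The values were -0.73 for nphp-1 and -1.05 for dyf-19 (limma, adjusted p = 0.844 and 1). The 4 kinases had a median of -0.80 and 0 calls; dyf-18 measured 5.14, 4.92 and 5.0 against 5.36, 5.43, 6.19 and 6.80 (-0.93 ± 0.32, adjusted p = 0.837). cdkl-1 was nearly equal in the first set (-0.08) and apart in the second (-2.48).

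Of 7 small GTPases and tubby genes 5 had a change below 0 (median -0.27) and 0 were called without a block. rab-28, a GTPase that rides with IFT trains, measured 6.79, 7.16 and 7.22 against 7.75, 8.45, 8.27 and 8.68 and was called with the set block (limma, -1.29, adjusted p = 0.0198) but not with the replicate block (adjusted p = 0.1). arl-3 measured 6.68, 8.01 and 7.76 against 8.46, 8.44, 8.48 and 8.50, with its larger difference in the first set (-1.78) and not the second (-0.61). Of the 10 xbx and accessory genes xbx-3 and xbx-9 were called without a block and xbx-4 was added by the set block (-1.71, adjusted p = 0.0243, or 0.0954 with the replicate block). Tubulins and tubulin-modifying enzymes of cilia had 7 of 12 below 0, a median of -0.11 and 0 calls with or without a block.

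Lists for the neurons that bear the cilia had no call without a block or with either block. Transcription factors and other genes of ciliated neuron fate had a median change of 0.14, with 6 of 14 below 0 and their mean level at 7.43, 7.61 and 7.59 in the double mutant against 7.29, 7.45, 7.43 and 7.55 in the daf-12 mutant. Sensory signal transduction genes had a median of -0.29 (14 of 18 below 0), receptor guanylyl cyclases -0.19 (28 of 34) and chemoreceptors -0.04 (803 of 1323). Of their members, gpa-3, a G alpha subunit, measured 4.95, 4.42 and 4.58 against 4.95, 5.07, 6.11 and 6.50. tax-4, a subunit of the cyclic nucleotide-gated channel, stood higher in the double mutant on every array, at 6.36, 5.66 and 5.80 against 5.07, 5.11, 5.28 and 5.31 (0.74 ± 0.19; limma, adjusted p = 0.533). Among male neuron genes of the polycystin list, cwp-4 had the largest value at -1.34 (adjusted p = 0.461).

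Marker lists of other tissues gave 0 calls without a block or with either block. Pan-neuronal genes averaged 8.62, 8.28 and 8.37 in the double mutant and 8.45, 8.20, 8.72 and 8.96 in the daf-12 mutant, so their range was 8.28 to 8.62 against 8.20 to 8.96. Median changes were -0.17 for touch receptor neurons and for amphid glia, -0.09 for body wall muscle, -0.12 for pharynx, 0.04 for intestine, 0.13 for epidermis, 0.00 for germline and 0.07 for the early embryo. By set of arrays, first then second, medians were 0.19 and -0.36 for pan-neuronal genes and 0.17 and -0.35 for touch receptor neurons. They were 0.11 and -0.32 for body wall muscle, 0.26 and -0.60 for pharynx and 0.00 and -0.28 for amphid glia. Intestine gave -0.08 and 0.02, epidermis -0.02 and 0.35, germline -0.23 and 0.12 and the early embryo -0.04 and 0.31. The part of shifts in cell types in the ciliary results was not tested.

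**Figure D3:**
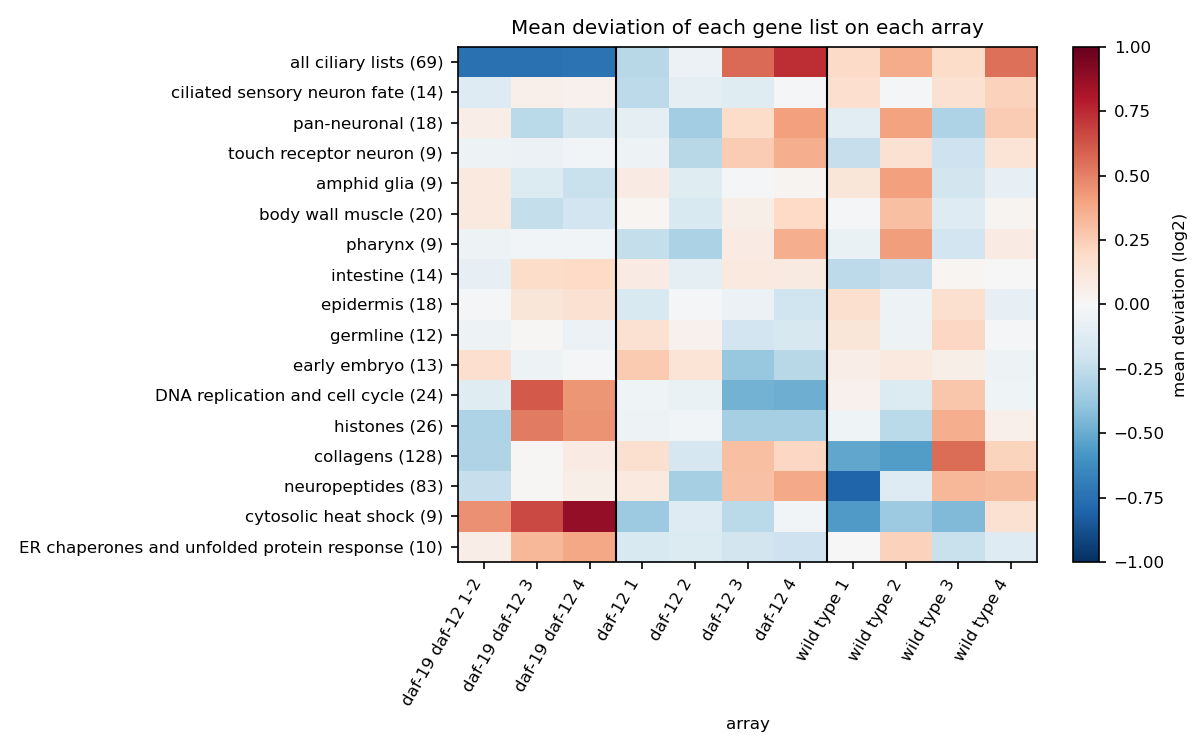
Mean deviation of the genes of a list from each gene's own mean over the 11 arrays (log2, colour), with lists as rows, their number of genes in brackets, and arrays as columns grouped by genotype. The ciliary row is at -0.75, -0.75 and -0.74 on the double mutant arrays and 0.57 and 0.74 on daf-12 arrays 3 and 4, while cell cycle and histone rows are high on double mutant arrays 3 and 4 only within that group.

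Outside the ciliary lists, the set block called further genes lower for which the groups did not overlap. Whether these genes act in cilia was not tested. F55A4.3 measured 4.64, 5.39 and 5.40 against 7.28, 7.15, 8.37 and 9.12 (limma, set block -3.07 ± 0.24, adjusted p = 0.000809). C33A12.4 measured 8.01, 8.40 and 9.04 against 10.45, 10.90, 11.74 and 11.61 (-2.90 ± 0.30, adjusted p = 0.00244). In both, each genotype was higher in the second set and the difference was similar in the 2 sets, -2.58 and -3.35 for F55A4.3 and -2.67 and -2.95 for C33A12.4. ptp-8, named as a protein tyrosine phosphatase, measured 4.26, 4.49 and 4.23 against 5.90, 5.98, 7.0 and 7.04 (-2.28, adjusted p = 0.000826). Each of these genes was also called with the replicate block, and none of them without a block (adjusted p = 0.184, 0.195 and 0.0616).

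K07C11.10 (set block -2.59; limma, adjusted p = 0.00877) and ddn-2 (-2.91, adjusted p = 0.0492) differed more in the second set than in the first, with -1.68 and -3.24 for K07C11.10 and -1.14 and -4.03 for ddn-2. The replicate block ended both calls (adjusted p = 0.0505 and 0.147). wrt-4, a hedgehog-related gene, measured 10.28, 10.45 and 10.35 against 11.36, 11.11, 11.51 and 11.27 (-0.97, adjusted p = 0.0198, or 0.109 with the replicate block). It had the same difference in each set, -0.96 and -0.98, and was the 1 call in a list of 80 hedgehog-related and patched-related genes, 56 of which had a change below 0 beside 53.8% of all genes. clip-1, a microtubule plus-end protein, measured 7.97, 8.23 and 8.23 against 9.29, 9.13, 9.35 and 9.24 (-1.11, adjusted p = 0.0407), and F09E5.12 changed by -1.25 (adjusted p = 0.0263). Neither was called with the replicate block (adjusted p = 0.168 and 0.0954), and a second, brighter probe set of clip-1 was not called with the set block (-0.99, adjusted p = 0.0723). Both genes were picked out after their values were seen.

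For tag-10 and irg-3 the daf-12 mutant was the group that stood apart, and both were picked out after their values were seen. tag-10 measured 6.21, 5.83 and 5.95 in the double mutant, 7.62, 7.21, 7.74 and 7.40 in the daf-12 mutant and 5.76, 6.49, 6.31 and 5.58 in wild type. The double mutant and the wild type overlapped, with the daf-12 mutant above both (set block -1.48; limma, adjusted p = 0.0406). A second, brighter probe set of tag-10 gave -1.51 and was not called (adjusted p = 0.0571). irg-3, named for its response to infection, measured 7.01, 7.29 and 6.96, then 8.07, 7.83, 9.05 and 9.01, then 6.03, 6.71, 7.53 and 7.04 in the same order (-1.53, adjusted p = 0.0406). Neither gene was called with the replicate block (adjusted p = 0.147 for each). At xbx-3, by comparison, the wild type arrays, at 6.81, 6.93, 6.93 and 7.35, overlapped the daf-12 arrays and lay above the double mutant.

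No gene was called higher without a block, and those nearest to a call were of several roles. argk-1, an arginine kinase, measured 7.34, 8.0 and 7.69 against 6.73, 6.54, 6.61 and 6.43 (1.10 ± 0.18; limma, adjusted p = 0.0666). tth-1, a thymosin beta gene, measured 11.15, 11.90 and 12.10 against 10.54, 10.58, 10.44 and 10.28 (1.26 ± 0.22, adjusted p = 0.0816). The groups did not overlap in either, and both were called with the set block (adjusted p = 0.0345 and 0.0492) but not with the replicate block (0.136 and 0.163). A second, brighter probe set of tth-1 gave 0.94 with the set block and was not called (adjusted p = 0.22). tag-123, the gene next to tth-1 on the X chromosome, was called higher with the set block too (adjusted p = 0.0477, or 0.182 with the replicate block), at 10.99, 10.37 and 10.29 against 10.27, 10.32, 9.27 and 9.35. nssp-63 measured 11.04, 11.03 and 11.13 against 10.05, 9.44, 9.88 and 10.21 (1.17, adjusted p = 0.239).

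Small heat shock proteins and the inducible hsp-70, chaperones made under protein-folding stress, were higher on the double mutant arrays of both sets. hsp-16.2 measured 9.55, 10.77 and 10.84 against 7.49, 7.98, 8.47 and 8.85. The groups did not overlap, and the set block gave 2.0 ± 0.20 (limma, adjusted p = 0.00235) and the replicate block an adjusted p of 0.00789. hsp-70 measured 6.36, 8.76 and 8.71 against 5.02, 4.61, 6.25 and 6.73 (set block 2.03, adjusted p = 0.045, or 0.1 with the replicate block), where array 1-2 lay below daf-12 array 4 and above both daf-12 arrays of its own set. The probe set shared by hsp-16.11 and hsp-16.1 changed by 1.49 with the set block (adjusted p = 0.0413) and was not called with the replicate block (adjusted p = 0.1). hsp-16.41, at 1.55, was not called (adjusted p = 0.365). Of 9 measured cytosolic heat shock genes 8 had a change above 0, beside 46.2% of all genes, 2 were called with the set block, beside 0.0292%, and 1 with the replicate block, beside 0.0117%. The constitutive hsp-1 and hsp-90, with changes of 0.23 and 0.27, were not called and were picked out after their values were seen. R11A5.3, for which no role is given here, measured 8.02, 10.50 and 10.29 against 6.56, 6.44, 8.09 and 8.40 and was called with both blocks (1.87, adjusted p = 0.00318 and 0.0316). It was picked out after its values were seen, as were tag-123 and the shared hsp-16 probe set.

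**Figure D4:**
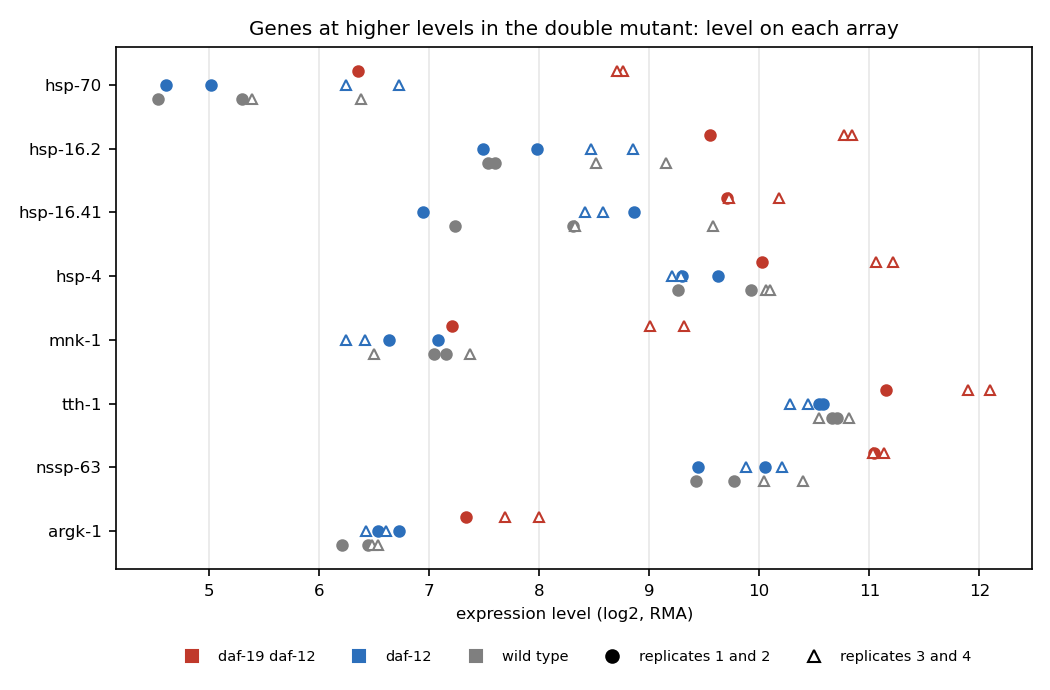
Level (log2, horizontal axis) on each array of 8 genes with higher values in the double mutant, with the same symbols as in the plot of the called probe sets. At the probe sets shown for hsp-16.2, hsp-16.41, hsp-4, mnk-1, tth-1, nssp-63 and argk-1 all red points lie to the right of the blue ones. For hsp-70 the red circle at 6.36 lies among the blue points.

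The difference was then taken within each set of arrays, in a fit with a mean for each genotype in each set. Replicates 1 and 2 held 1 double mutant array against 2 daf-12 arrays and replicates 3 and 4 held 2 against 2. The single double mutant array of the first set is assumed there to vary like the other arrays. limma called 1 probe set lower within replicates 1 and 2 (0.00443% of probe sets and 0.00584% of genes), that of Y41E3.5 (-3.52, adjusted p = 0.0437), and 0 higher. At an unadjusted p under 0.05 there were 466 lower (2.07%) and 279 higher (1.24%). Within replicates 3 and 4 it called 892 lower (3.96%) and 713 higher (3.16%). These counts take the close arrays 3 and 4 of each mutant as separate samples, and separate cultures are not stated for them. The difference between the 2 changes was called by limma at 0 probe sets, with a lowest adjusted p of 0.106. At an unadjusted p under 0.05 it was lower at 1964 (8.71%) and higher at 2020 (8.96%), larger shares than within replicates 1 and 2. No single gene was thus shown to change differently in the 2 sets, but this does not show that the sets agree. The test of that difference has 1 double mutant array on one side.

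Most probe sets called within replicates 3 and 4 were not on the same side of 0 in replicates 1 and 2, which share no array with them. Of the 892 called lower, 321 (36%) had a change below 0 in the first set, where 56.2% of all probe sets did, and their median there was 0.15. Of the 713 called higher, 246 (34.5%) had a change above 0, where 43.8% of all did, and their median was -0.14. Ciliary genes mostly were. Of 42 called lower within replicates 3 and 4, 39 (92.9%) were also below 0 in replicates 1 and 2, with a median of -0.85 there and -1.96 in the second set. For the 845 other probe sets called lower the share was 32.9%. The ciliary lists were put together with knowledge of which genes had moved in these data, so this contrast is a description.

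**Figure D5:**
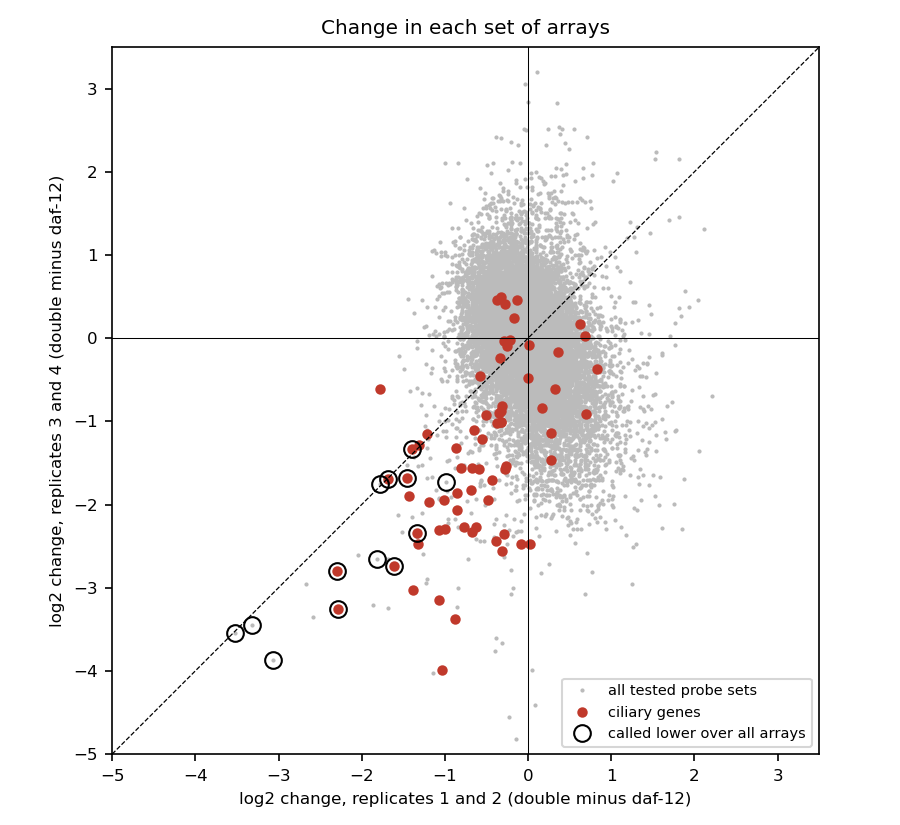
Change within replicates 1 and 2 (horizontal) and within replicates 3 and 4 (vertical), both log2, double mutant minus daf-12 mutant, for all tested probe sets (grey), ciliary genes (red) and the 13 called over all arrays (ringed); the dashed line marks equal changes. The ringed points lie near or below the line at the lower left, and most grey points with a change under -1 on the vertical axis lie near or above 0 on the horizontal one.

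Of all 69 ciliary genes, array 1-2 lay below both daf-12 arrays of its set in 57, beside 40.4% of all genes. Arrays 3 and 4 lay below both of theirs in 59, beside 31.7%, and both held for 50, beside 8.12%. The change was more negative in the second set for 55, with medians of -0.48 and -1.47. A change of -1 or lower in both sets was found at 53 probe sets (0.235%), for 43 genes, 17 of them ciliary, and a change of 1 or higher in both at 14 (0.0621%), for 10 genes and 0 ciliary ones. In contrast, 1236 probe sets were at -1 or lower in replicates 3 and 4 alone, and 941 of these were at or above 0 in replicates 1 and 2.

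Genes outside the ciliary lists that differed within replicates 3 and 4 included those for cell division. Every one of 24 genes for DNA replication and the cell cycle had a change above 0 over all arrays (median 0.57), beside 46.2% of all genes. Within replicates 3 and 4 their median was 0.95 and 14 were called higher, beside 3.01% of genes, while within replicates 1 and 2 it was -0.08 with 0 calls. cyb-1, a cyclin B, measured 7.41 on array 1-2 and 8.99 and 8.80 on arrays 3 and 4, against 7.24, 7.52, 7.12 and 6.70. Histone genes had medians of -0.28 in the first set and 0.81 in the second, with 12 of 26 called higher in the second. The mean level of the cell cycle list was 6.80 and 6.79 on daf-12 arrays 3 and 4, 7.88 and 7.71 on double mutant arrays 3 and 4, and 7.56 and 7.23 on wild type arrays 3 and 4. On the same arrays the early embryo list averaged 5.89 and 5.99, 6.22 and 6.24, and 6.32 and 6.22 in that order. The part of embryo age in this was not tested.

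Of the genes with the smallest p values on the higher side, several had most of their difference in the second set. mnk-1, a kinase of the MAP kinase pathway, measured 7.21, 9.01 and 9.32 against 7.08, 6.64, 6.25 and 6.42, with a change of 0.35 in the first set and 2.83 in the second (limma, adjusted p = 0.00292 in the second, and 0.113 for the difference between sets). A second, dimmer probe set of mnk-1 gave -0.05 and 2.51, and there the groups overlapped. ztf-11, a zinc finger gene, gave 0.18 and 1.89 at 1 probe set. Its brightest one gave 0.16 and 0.38 (limma, adjusted p = 0.411 in the second set). enu-3.1 gave 0.19 and 1.85. hsp-4, the worm BiP chaperone of the endoplasmic reticulum, measured 10.03, 11.06 and 11.22 against 9.63, 9.30, 9.29 and 9.21, with 0.57 in the first set and 1.89 in the second. Its list of 10 genes for endoplasmic reticulum folding had a median of 0.30 and 0 calls over all arrays, with 4 called higher within replicates 3 and 4, beside 3.01% of all genes. fbxc-40 and B0507.3 stood at 1.32 and 0.89 over all arrays (adjusted p = 0.342 and 0.321).

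Large gene families had 0 calls over all arrays without a block. Nuclear hormone receptors had 183 of 254 below 0 (median -0.12), detoxification genes 129 of 177 (-0.17), neuropeptides 59 of 83 (-0.12), collagens 100 of 128 (-0.15) and C-type lectins 109 of 220 (0.00). In these families the arrays separated the groups downwards in 11, 16, 5, 11 and 7 genes, beside 3.23% of all genes. Among detoxification genes the glutathione transferase gst-14 had the lowest value, with levels of 4.86, 3.97 and 3.82 against 6.62, 6.12, 6.38 and 6.08 (-2.08 ± 0.41; limma, adjusted p = 0.172). Its wild type arrays, at 4.27, 4.57, 5.52 and 6.09, overlapped both groups. The mean level of the detoxification list was 6.51 to 6.59 on the daf-12 arrays. It was 6.07 to 6.37 on the wild type arrays and 6.46 or lower on the double mutant arrays. Genes of dafachronic acid synthesis, which makes the DAF-12 ligand, had a median of -0.10 over 6 genes, and those of the dauer TGF-beta and insulin pathways -0.01 over 17. No gene of either list separated the groups. The 23 major sperm protein genes, with changes from 0.04 to 0.43 over all arrays, had medians of -0.54 in the first set of arrays and 0.94 in the second. Oxidative and metal stress genes had 8 of 9 below 0 (median -0.06). daf-9 measured 6.42, 5.83 and 5.59 against 6.66, 6.45, 5.68 and 5.90, with the sets of arrays further apart than the genotypes.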

How the data were processed

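Expression was measured on Affymetrix arrays of RNA from whole embryos, and per the submitters' processing notes the log2 values that the authors deposited came from RMA, whose version and settings are not given in the sources used here. Symbols came from the platform annotation: 20766 of the tested probe sets had 1 gene, 887 several and 895 none, and a gene table used for names and neighbours held 20701 of the 20766. A mean for each of the 3 groups was estimated by limma (version 3.58.1, R 4.3.3; lmFit, then eBayes) without a block. Tests were two-sided, with Benjamini-Hochberg adjustment over 22548 probe sets, and a call is an adjusted p under 0.05. The procedure was tested on simulated data. Alternatives were the blocks, 1 set of arrays alone, other priors and weights, a minimum level, centred medians, no wild type arrays and leaving out each array.

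Named genes were daf-19, daf-12, mks-6 and dyf-18, those called, up to 12 in each direction called with the set block and not overlapping, the 10 smallest p values on the side with no call, and up to 4 per list by size of change. The members, the 39 lists and the tests were chosen with earlier results of these data known. Replicate pairing was checked by correlating deviations from group means between double mutant and daf-12 arrays of the same number, which gave 0.22, 0.29, 0.26 and 0.23 for numbers 1 to 4, array 1-2 standing for both 1 and 2. All exceeded 0.1, so the replicate block is given where it changes a call. Arrays of unlike number within replicates 3 and 4 gave 0.13 and 0.32, and arrays of different sets gave -0.34 to -0.17. Because each number falls in 1 set, the shift between sets is part of this correlation. The check therefore cannot tell pairing by number from the set. In the replicate block array 1-2 has the number 1, so daf-12 array 2 is paired with wild type array 2 only. X-box motifs were not searched.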

Additional observations from a re-analysis of the deposited data

Results flagged for a closer look

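The poly-A spike-in probe sets, which are not part of the comparison, averaged 8.52 on double mutant arrays 3 and 4, above the 4.18 of array 1-2; the daf-12 mutant and wild type have the same split between replicates 1 and 2 and replicates 3 and 4. The level of daf-12 on daf-12 array 3, 8.48, lay far below the other 3 arrays of its group, at 8.83 to 8.85. On arrays 3 and 4 of the other groups this probe set stood at 8.24 and 8.33 in the double mutant and at 8.09 and 8.83 in wild type. The level of B0507.3 on daf-12 array 2, 7.56, lay far above the other 3 daf-12 arrays, at 7.0 to 7.07. Of the 32 groups of 4 arrays tested in this way 2 stood out, and chance gives about 1 in 20.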

How the results depend on the processing

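The count of probe sets called lower, 13, was 8 without the wild type arrays, 30 with the identical columns as 2 samples, 41 with the set block, 37 with that block and no wild type arrays, 0 with replicates 1 and 2 alone, 1050 with replicates 3 and 4 alone, 973 with array weights and 1 with arrays 3 and 4 of each mutant averaged. The count called higher, 0, was 1 with the identical columns as 2 samples, 2 with the replicate block, 7 with the set block, 6 with that block and no wild type arrays, 841 with replicates 3 and 4 alone and 1190 with array weights. The count of ciliary genes called lower, 7, was 2, 15, 14, 12, 0, 42, 44 and 1 in the order of the first sentence, and 4 with the replicate block. Leaving out 1 array at a time gave 1 to 26 lower, 0 to 48 higher and 1 to 14 ciliary genes; the 48 higher came without double mutant array 1-2. Array weights ran from 0.45 on array 1-2 to 5.41 on double mutant array 4. The cause was not tested in any of these. A mean-level trend, a robust prior, a minimum mean of 6 and centred medians kept the lower count within 1.5 times. Of the genes named by rule none had its direction reversed with a call in any of these alternatives. The set block without wild type arrays and the averaging were chosen after the data were seen. The replicate block kept 7 of the 13 lower calls, 11 of the 41 made with the set block and 2 of the 7 higher ones.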
